A study of Sus scrofa with 12 samples.

Results

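Spliced intergenic transcripts are here assembled RNAs of pig loin that carry at least 1 intron and lie outside the exons of annotated genes. A transcript was taken when it had 2 or more exons on a chromosome, shared no exonic base with an annotated exon of Sscrofa11.1 on either strand, and did not lie within an annotated intron. Transcripts with the same introns on the same strand were merged over the libraries, which gave 814 distinct transcripts of the 87278 spliced transcripts on chromosomes. By overlapping exons on 1 strand they formed 365 loci, named here IG1 to IG365 in genome order. The rule used no level and no group. Each library held 108 to 162 of these transcripts. A further 16 to 35 spliced transcripts per library were free of annotated exons but lay inside an intron, and 1631 to 2431 intergenic transcripts per library had a single exon, and both kinds were left out.

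The RNA came from the Longissimus dorsi muscle of 12 castrated male Iberian pigs, fattened outdoors on acorns and grass and of similar age, with 1 library per animal. The animals were chosen from the extremes of the breeding value for shear force, the force needed to cut cooked meat, and form a Tough group (n = 6) and a Tender group (n = 6). The measured shear force was 9.17 ± 1.28 kg/cm2 (SD, n = 6) in the Tough group and 2.94 ± 0.42 kg/cm2 (SD, n = 6) in the Tender group. The muscle holds fibres together with fat, blood and vessel cells, and in such a sample fewer cells of a type and less RNA per cell cannot be told apart. Levels are in FPKM, fragments scaled to transcript length and to the mapped fragments of the library, as the authors' assembly gives them.

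Transcripts from between genes are usually long non-coding RNAs, which are spliced and polyadenylated as messenger RNAs are but are mostly less abundant and more tissue-restricted. Many start beside the promoter of a coding gene and run away from it on the opposite strand. Some keep a reading frame, because an annotation can lack a coding gene. In muscle, RNAs of this kind include the primary transcripts of microRNAs such as miR-206, which belongs to differentiating and regenerating fibres.

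The sequences that identify the main loci are given first. The stretches below are read from the RefSeq genome of Sscrofa11.1, 5′ to 3′ along the strand of the transcript, across the first exon junction, and the capitals mark the last base of the upstream exon and the first base of the downstream exon. They belong to the 8 most abundant loci and to IG348 and IG319, which had the smallest unadjusted p in either direction between the groups. The removed introns span chr2:1383008-1383095 on the minus strand (IG38), chr14:108944886-108948851 on the plus strand (IG305), chr12:52602622-52605257 on the minus strand (IG266), chr6:55325822-55325953 on the minus strand (IG157), chrX:57289870-57305745 on the plus strand (IG356), chr7:75153315-75153400 on the minus strand (IG188), chr13:100440079-100441685 on the minus strand (IG280), chr7:45967929-45974122 on the plus strand (IG185), chr18:42227866-42234837 on the plus strand (IG348) and chr15:81978635-81978801 on the plus strand (IG319). Each of these introns begins with GT and ends with AG.
IG38: tcgcaccggagacaGCctcgtctccagtgg
IG305: gaggaggaaaatgaGAaactccgaggagcc
IG266: aggcagatccgcacGGtaattcagtaccaa
IG157: agaggcacacagcaCCgagaagcaccgcag
IG356: aacagtcggtagagGAgtgcaaaaatgcag
IG188: aacgctcatggggaGCcccgaaactacctc
IG280: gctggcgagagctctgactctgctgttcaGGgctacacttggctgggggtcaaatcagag
IG185: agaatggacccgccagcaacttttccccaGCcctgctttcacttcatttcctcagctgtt
IG348: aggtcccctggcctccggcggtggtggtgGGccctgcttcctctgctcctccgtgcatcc
IG319: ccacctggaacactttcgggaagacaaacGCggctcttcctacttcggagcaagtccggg

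The 3′ ends of 5 of these loci are shown because a polyadenylation hexamer, AATAAA, which directs cleavage of the RNA, lies within their last 50 bases. IG157 and IG356 held the variant ATTAAA there and are not shown. The capitals mark the hexamer. The windows are chr2:1381840-1381869 (IG38, minus strand), chr7:75140210-75140239 (IG188, minus strand), chr13:100439831-100439860 (IG280, minus strand), chr18:42235391-42235415 (IG348, plus strand) and chr15:81979339-81979368 (IG319, plus strand).
IG38: cctggactcatcAATAAActcagttaccgg
IG188: agctccagcactAATAAAgaggcatttcct
IG280: atatatttgagaAATAAAaaagaacttcct
IG348: tgccaagtggaaAATAAAcagtaat
IG319: atttaaaataatAATAAAaatatacctaag

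Over all 814 transcripts, 13.9% carried AATAAA or ATTAAA in the last 50 bases on their own strand. The share was 17.0% among 1572 spliced transcripts assigned to annotated long non-coding RNA genes and 21.1% among 80853 assigned to protein-coding genes. The hexamer was therefore found in a minority of each class, and assembled ends need not be true ends.

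The libraries held the RNA of muscle, with 1 animal and 1 set of genes standing apart. Of 9 muscle genes listed, 8 had an entry in the annotation and their summed FPKM was 7428 to 13414 in every library. CKM, the muscle creatine kinase, was nevertheless listed at 0 in 7 libraries and DES, the desmin gene, in 5. A value of 0 here can therefore stand for a gene whose transcripts were not assembled or were not assigned to it. Which of these applied was not tested. The interferon response genes (8 of 8 above 0 in some library) summed to 373 FPKM in the library Tender 2 and to 13.5 to 33.3 FPKM in the other 11. GBP1 alone had 170 FPKM in Tender 2, whereas CXCL9 was at 0 there and above 0 only in Tough 4 (0.841 FPKM). The blood genes were HBB, a haemoglobin chain, and ALAS2, an enzyme of haem synthesis in red cells. They summed to 124 to 206 FPKM in the Tough group and 238 to 351 FPKM in the Tender group, nearly all of it HBB. The groups did not overlap, which held with Tender higher for 0.0762% of all 9184 features tested. The lowest limma adjusted p of the 2 blood genes was 0.81. The fat genes (3 of 4 above 0, ADIPOQ at 0 in all 12) summed to 13.97 to 34.8 FPKM and 9.08 to 28.8 FPKM, the endothelial genes (3 of 3) to 14.4 to 30.5 FPKM and 23.0 to 37.8 FPKM, and the macrophage genes (3 of 3, CD68 at 0 in 8) to 1.82 to 7.11 FPKM and 2.66 to 7.84 FPKM, in the Tough and the Tender group. The part of these genes in the results that follow was not tested. Which libraries shared a sequencing lane is not given in the sources used here.

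Most spliced intergenic transcripts were short, had few exons and were assembled in a single animal. The median length over the 814 transcripts was 1158 bases, and the median number of exons was 2. In all, 51.6% had exactly 2 exons. Of the transcripts, 531 (65.2%) were in 1 library, 67 were in 6 or more and 10 (1.23%) were in all 12. The share in 1 library was 58.6% for transcripts assigned to annotated long non-coding RNA genes and 65.1% for those of coding genes. Presence in a single animal was thus as common among coding transcripts. The share in all 12 was 3.56% and 4.42% in these classes. The loci recurred more often than their exact introns did, with 149 of 365 in 1 library and 24 in all 12. A locus held 1 transcript in 230 cases and at most 46. Its merged exons covered 209 to 18915 bases with a median of 1310 bases.

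**Figure D1:**
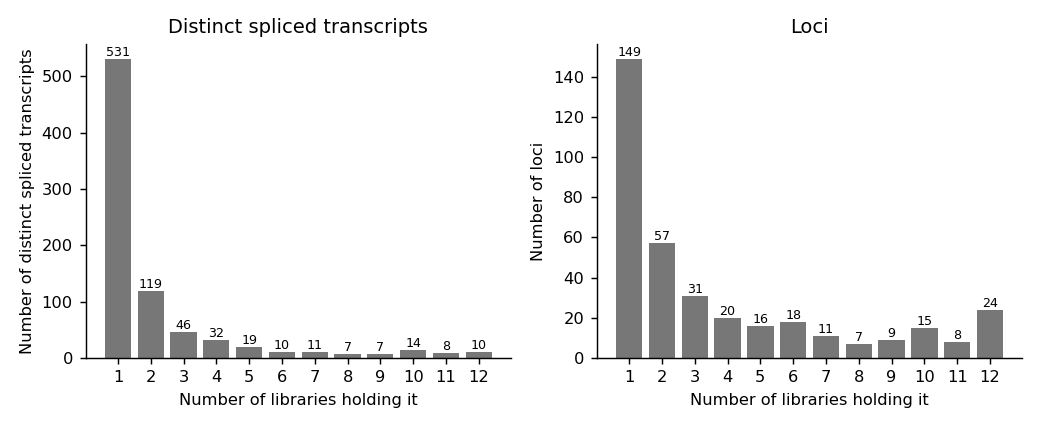
Number of spliced intergenic transcripts (left) and of loci (right), on the vertical axes, that were found in 1 to 12 of the libraries, on the horizontal axes. Bars are counts, printed above them. The bar for 1 library is the highest in both panels, and the loci have a smaller peak of 24 at 12 libraries.

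The loci that recurred also had more exons and higher levels. Loci in 1 library had a median of 0.0353 FPKM over the 12 libraries (n = 149), those in 2 to 5 had 0.0955 FPKM (n = 124), those in 6 to 11 had 0.324 FPKM (n = 68) and those in all 12 had 1.91 FPKM (n = 24). The median of the largest exon number was 2, 2, 3 and 4 in these classes. The mean level counts a library without the transcript as 0, so it rises with recurrence by construction. The exon number is the largest over all transcripts of a locus, so it too can rise with the number of libraries pooled. Along the genome the loci were spread over all 20 chromosomes, with 38 on chromosome 3 and 36 on chromosome 1. Per 10 Mb, their number ran from 0.459 on chromosome Y to 3.25 on chromosome 12.

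Most introns had the ends that the spliceosome uses. Among 979 distinct introns, 891 (91.0%) had GT at the start and AG at the end, 22 had GC and AG, and 5 had AT and AC, the ends of the minor class. The remaining 61 introns (6.23%) had other ends. Such introns made up 44 of 416 (10.6%) among those seen in 1 library and 3 of 296 (1.01%) among those seen in 6 or more. How far the choice of junctions in read mapping shaped all these shares was not tested. The introns had a median of 1754 bases and ran from 4 to 178917 bases, and 5 were shorter than 50 bases. The intron of IG86 (chr3:39828989-39829202, 6 libraries) is shown because its ends are those of a GT and AG intron read on the other strand. The assembly placed IG86 on the minus strand, and the capitals mark the first 2 and the last 2 bases of the intron on that strand.
IG86 intron start: accgatgttcCTgaaagaca
IG86 intron end: ccagccttACctgtagggag

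Compared within each library, spliced intergenic transcripts were less abundant than the spliced transcripts of annotated genes, including the long non-coding ones. The median log2 FPKM was -0.63 ± 0.18 (SD, n = 12) for the intergenic transcripts, 0.07 ± 0.20 for annotated long non-coding RNAs and 0.54 ± 0.13 for coding genes. The difference from long non-coding RNAs was -0.70 ± 0.15 on the log2 scale and the difference from coding genes was -1.16 ± 0.19, each negative in 12 of 12 libraries. In an exact paired sign-flip permutation test over the libraries, two-sided, both had p = 0.000488, the smallest that 12 libraries allow, and an adjusted p of 0.000698 over 10 such comparisons by permutation.

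Their structure also differed from both annotated classes. The median length per library was 1240 ± 148 bases (SD, n = 12), longer than the 1061 ± 67 bases of annotated long non-coding RNAs in 12 of 12 libraries and shorter than the 2212 ± 88 bases of coding transcripts in 12 of 12. The mean number of exons was 3.83 ± 0.27, lower than the 4.48 ± 0.11 of long non-coding RNAs and the 10.3 ± 0.25 of coding transcripts in 12 of 12 libraries. All 4 differences had an adjusted p of 0.000698 in the same exact permutation test. Against long non-coding RNAs, the length difference was no longer past 0.05 among transcripts of at least 0.5 FPKM (66.7 bases, exact permutation p = 0.234), nor was the exon difference at least 5000 bases from any gene (-0.39, exact permutation p = 0.0903). The share of soft-masked bases, which the assembly marks as repeats, was 13.7 ± 1.2% against 12.1 ± 0.40% in long non-coding RNAs (higher in 11 of 12 libraries, adjusted p = 0.00122, exact permutation test) and 7.70 ± 0.15% in coding transcripts (higher in 12 of 12, adjusted p = 0.000698). The GC content was 51.2 ± 1.2%, against 50.4 ± 0.51% in long non-coding RNAs (higher in 9 of 12, adjusted p = 0.0122, exact permutation test) and 52.6 ± 0.26% in coding transcripts (lower in 11 of 12, adjusted p = 0.00163). Among transcripts at least 5000 bases from any gene, the GC difference from long non-coding RNAs was -0.66 percentage points, the opposite sign (exact permutation p = 0.104), and the soft-masked difference was 0.29 percentage points (p = 0.834, exact permutation test). The GC difference from coding genes did not reach 0.05 among transcripts of at least 0.5 FPKM or in at least 2 libraries (exact permutation p = 0.0659 and 0.205).

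Many loci began beside a gene and ran away from it. The distance to the nearest annotated gene had a median of 851 bases and reached 325668 bases. In 133 loci (36.4%) it was 1 to 1000 bases, in 100 (27.4%) it was 5000 bases or more, and 55 (15.1%) had a span that overlapped that of a gene without sharing an exon. Upstream of the gene and on the opposite strand, within 1000 bases, lay 71 loci (19.5%), and 23 of these were within 100 bases. Of the 24 loci in all 12 libraries, 6 had this head-to-head position. A further 36 loci lay within 1000 bases downstream on the gene's own strand, and none of these was in all 12 libraries. For 59 loci (16.2%), some library held a spliced transcript of an annotated gene that ran on the same strand into the locus.

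**Figure D2:**
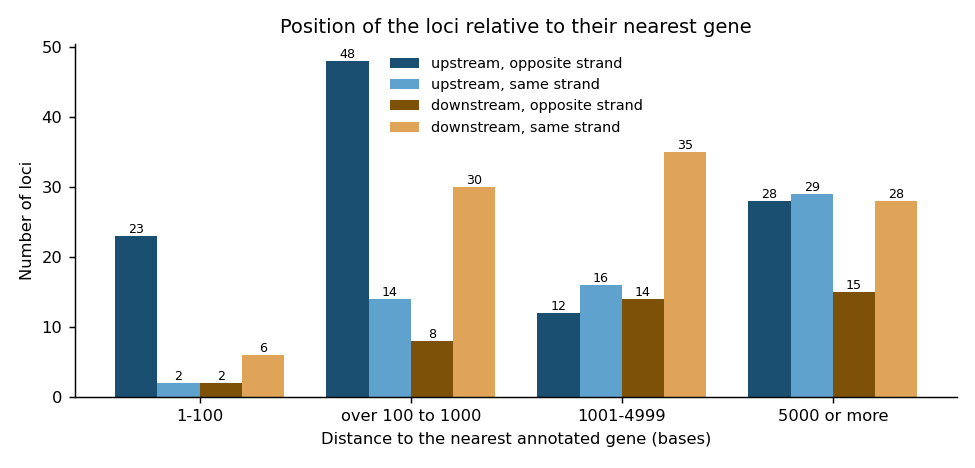
Number of loci (vertical axis) by distance to the nearest annotated gene in bases (horizontal axis) and by position and strand relative to that gene (bar colour), for the 310 loci whose span overlaps no gene. Counts stand above the bars. Upstream loci on the opposite strand make up 23 of the loci within 100 bases and 48 of those further out up to 1000 bases.

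The bases before the head-to-head loci were rich in CG pairs, which mark the promoters of many widely used genes. In the 300 bases upstream of the locus start, the median GC content was 70.7% for the 71 head-to-head loci and 49.3% for the other 294. The ratio of observed to expected CG pairs had a median of 0.85 and 0.31, and it was above 0.6 in 90.1% and 23.5% of the windows. In windows of the same length, it was above 0.6 for 50.3% of 19559 annotated coding genes and 26.1% of 5428 annotated long non-coding RNA genes. The windows of head-to-head loci include the start of the neighbouring gene in many cases, so these values are a description of shared sequence.

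The bases that separate 3 head-to-head loci from their neighbours are given because both transcription units begin within or beside them. They are IG14 and NARS, an asparagine tRNA ligase (chr1:106933106-106933223), IG115 and CSPP1, a centrosome and spindle protein (chr4:67844338-67844443), and IG313 and LOC100525433 (chr15:37957432-37957490), all read on the plus strand towards the locus. The capitals mark CG pairs, of which there are 10, 11 and 4.
IG14: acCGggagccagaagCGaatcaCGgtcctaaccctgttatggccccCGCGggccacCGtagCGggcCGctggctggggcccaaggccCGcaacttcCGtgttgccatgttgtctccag
IG115: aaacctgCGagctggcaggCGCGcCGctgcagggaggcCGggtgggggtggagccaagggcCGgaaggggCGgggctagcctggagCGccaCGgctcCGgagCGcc
IG313: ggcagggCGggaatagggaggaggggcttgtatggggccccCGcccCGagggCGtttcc

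IG14 (mean 5.53 FPKM), IG115 (5.16 FPKM) and IG313 (1.62 FPKM) were each assembled in all 12 libraries. The other 3 head-to-head loci in all 12 were IG280 (22 bases from PPM1L, a protein phosphatase), IG195 (16 bases from LOC106504538) and IG126 (6 bases from TMEM167B, a small membrane protein). IG266 lay 1 base from ELP5, a subunit of the elongator complex, and was assembled in 10 libraries.

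A few loci carried long open reading frames. The longest frame from ATG to stop on the transcript's strand had a median of 72 codons over the 814 transcripts, against 63 codons in annotated long non-coding transcripts and 252 codons in coding ones. It reached 100 codons or more in 30.5%, 24.7% and 71.9% of them. By locus, 27 of 365 had a frame of 200 codons or more, and 16 of these were among the 40 loci with 5 or more exons. Such a frame was present in 1 of 149 loci in 1 library, 5 of 124 in 2 to 5, 15 of 68 in 6 to 11 and 6 of 24 in all 12. The frame is the longest over all transcripts of a locus, so it can rise with the number of libraries pooled.

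The loci with the most exons were of this kind, counting exons in the largest transcript of each. IG252 on chromosome 12 (mean 0.619 FPKM) was a locus of 46 transcripts that was present in all 12 libraries, but its 67-exon forms were each in 1. It had a frame of 1753 codons and lay 8723 bases downstream of SLC26A11 on the same strand. IG188 on chromosome 7 had 21 exons and a frame of 1072 codons. IG204 on chromosome 8 had 19 exons and 708 codons, IG48 on chromosome 2 had 13 exons and 756 codons, IG356 on chromosome X had 11 exons and 470 codons, and IG183 on chromosome 7 had 10 exons and 441 codons. IG252, IG204 and IG183 are named because they were seen to have 10 or more exons.

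**Figure D3:**
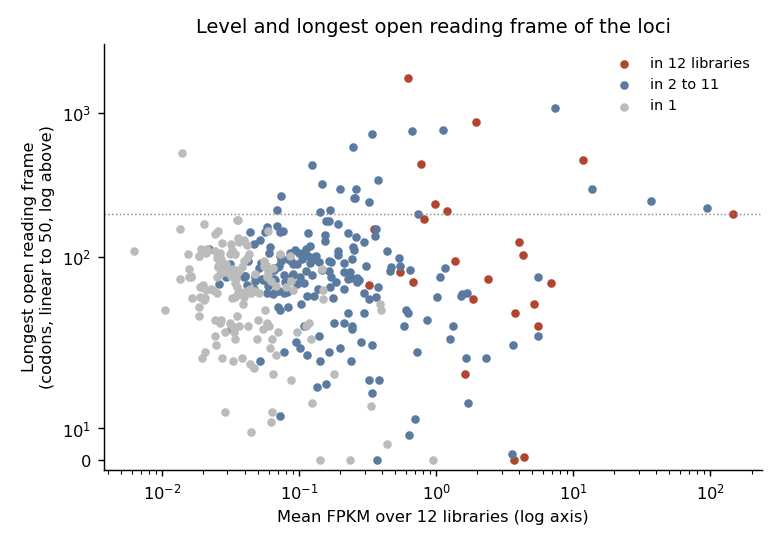
Longest open reading frame in codons (vertical axis, linear to 50 and logarithmic above) against the mean FPKM over 12 libraries (horizontal axis, logarithmic) for the 365 loci, coloured by the number of libraries that held the locus. The dotted line marks 200 codons. Of the 27 loci at or above the line, 1 was in a single library.

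Matches to annotated pig proteins, over at least 50 residues in a translated search, were found for 56 loci. In 25 of them the match was to CUL7, and 31 loci matched another protein. Among the latter, 14 had a frame of 200 codons or more. IG162 matched ZNF471, a zinc finger protein, at 80.4% over 423 residues. IG356 matched PSPC1, a paraspeckle protein, at 73.0% over 259 residues. IG48 matched RAVER2, an RNA-binding protein, at 57.7% over 331 residues. IG305 matched ANKRD1, a stress-responsive muscle ankyrin repeat protein, at 53.1% over 207 residues. IG266 matched CTDSPL, a small phosphatase, at 43.8% over 176 residues. A near-identical annotated transcript was found for 6 of the 365 loci. The annotation used here is that of NCBI, and a locus can be a gene in another annotation, such as that of Ensembl, which was not used here.

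Of 365 loci, 55 had a mean above 0.5 FPKM, 11 were above 5 FPKM and 5 were above 10 FPKM. The 3 most abundant held 62.9% of the summed locus level and the first 8 held 73.3%. In each library the spliced intergenic transcripts made up 0.0742 to 0.273% of the summed FPKM of all spliced transcripts on chromosomes.

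IG38 was the most abundant locus, on chr2:1381833-1384432 on the minus strand. Its 5-exon transcript was assembled in all 12 libraries and a 6-exon form in 1. It lay 11665 bases upstream of LOC110259183 on the same strand. In the Tough group it had 277, 24.3, 176, 176, 61.2 and 53.2 FPKM, and in the Tender group 93.2, 184, 196, 141, 145 and 218 FPKM (replicates 1 to 6). The lowest 3 values were all in Tough animals, the highest was also in a Tough animal, and the groups overlapped. The log2 difference, Tough minus Tender, was -0.74 ± 0.52 (SE), with an exact permutation p of 0.234 and a limma adjusted p of 0.9999. It was -1.05 without Tough 1 and -0.35 without Tough 2.

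IG305 was the next, on chr14:108944320-108958395 on the plus strand, 417 bases upstream of HOGA1, a mitochondrial enzyme of hydroxyproline breakdown, on the same strand. Its intergenic transcripts had 70.6, 195.05, 0, 16.3, 47.4 and 38.4 FPKM in the Tough group and 75.3, 272, 0, 0, 254 and 163 FPKM in the Tender group. In the 3 libraries listed at 0, other transcripts covered these exons. A second scale took the FPKM of every transcript of the strand or of no strand per exonic base of the locus. On it, Tough 3 had 70.6 FPKM, Tender 3 had 82.8 FPKM and Tender 4 had 43.8 FPKM. In Tough 3, HOGA1 itself was listed at 177 FPKM against 0 to 3.04 FPKM in the other 11 libraries. On the scale per exonic base IG305 ran from 38.4 to 272 FPKM, and its log2 difference between the groups was -0.91 with an exact permutation p of 0.134. On the assembled scale the difference was 0.00 ± 1.96 (SE). ANKRD1, its protein match, had 85.8 to 198 FPKM in the Tough group and 147 to 468 FPKM in the Tender group.

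IG266, on chr12:52599179-52606139 on the minus strand with 8 exons, had 61.8, 41.6, 0, 37.8, 0 and 39.2 FPKM in the Tough group and 36.6, 44.9, 40.1, 49.1, 51.3 and 42.0 FPKM in the Tender group. Per exonic base it ran from 36.6 to 61.7 FPKM over all 12, so the libraries at 0 were within the range of the others on that scale. The log2 difference was -2.15 ± 1.24 (SE) on the assembled scale and 0.09 per exonic base (exact permutation p of 0.249 and 0.487). The first was -1.28 without Tough 3.

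IG157, on chr6:55325300-55332264 on the minus strand, had 2 exons and lay 3049 bases downstream of EMC10, an endoplasmic reticulum membrane protein gene, on the opposite strand. It had 29.5, 5.06, 6.96, 26.5, 24.3 and 19.8 FPKM in the Tough group and 18.7, 8.88, 8.35, 0, 8.69 and 7.75 FPKM in the Tender group. Of the Tough animals, 4 were above all Tender animals and the other 2 were within the Tender range. The log2 difference was 1.35 ± 0.78 (SE, exact permutation p of 0.139), and 0.62 without Tender 4, the library listed at 0.

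IG356, IG188, IG280 and IG185 completed the most abundant loci. IG356, on chrX:57289742-57316068 on the plus strand, lay 422 bases upstream of ITGB1BP2, the muscle integrin-binding protein melusin. It was assembled in all 12 libraries, with 7.16 to 14.8 FPKM (median 11.04) in the Tough group and 10.5 to 13.5 FPKM (median 13.1) in the Tender group. IG188, on chr7:75140161-75153822 on the minus strand, lay 520 bases upstream of IRF9, a part of the transcription factor that interferon activates, on the same strand. It had 0 in Tough 1 and 5.97 to 8.65 FPKM in the other Tough animals, and 6.41 to 12.3 FPKM in the Tender group. Its highest value was in Tender 2, where IRF9 had 20.7 FPKM against 0 to 3.93 FPKM in the other 11 libraries. Per exonic base Tough 1 had 8.88 FPKM. IG280, on chr13:100439818-100442423 on the minus strand, had 3.90 to 8.33 FPKM (median 5.88) in the Tough group and 4.13 to 13.98 FPKM (median 7.46) in the Tender group.

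IG185, on chr7:45966664-45977730 on the plus strand, had a span that contained MIR206 on its own strand and was assembled in 10 libraries. It had 4.91, 5.58, 7.25, 15.5, 5.67 and 3.94 FPKM in the Tough group and 6.90, 0, 0, 3.90, 7.51 and 5.44 FPKM in the Tender group. Per exonic base it had 8.72 to 21.2 FPKM in the Tough group and 7.26 to 15.6 FPKM in the Tender group. The groups overlapped on both scales, with exact permutation p of 0.177 and 0.190.

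**Figure D4:**
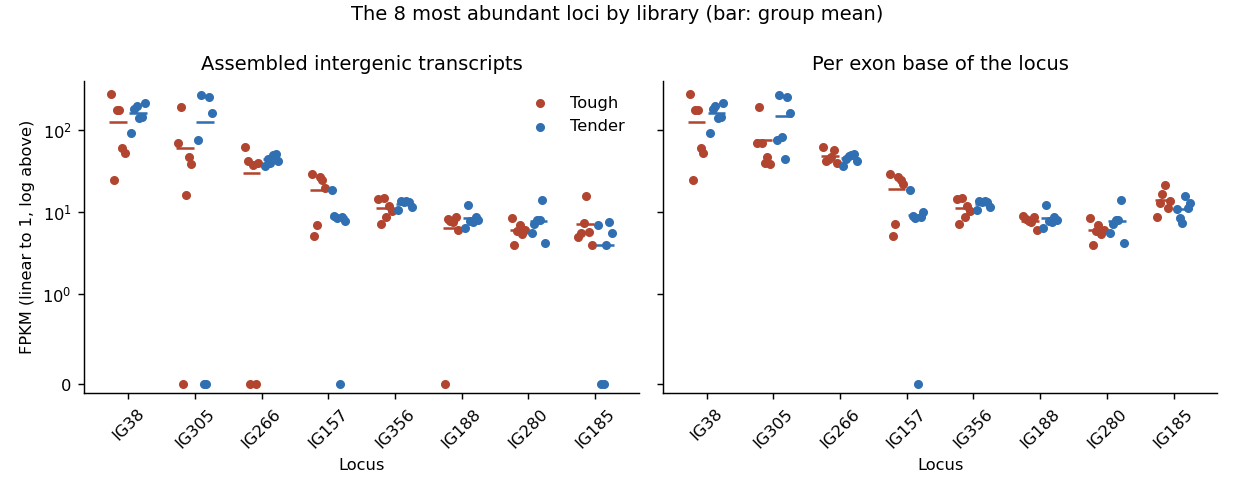
FPKM (vertical axis, linear to 1 and logarithmic above) of the 8 most abundant loci in each of the 12 libraries. Values are of assembled intergenic transcripts (left) and per exonic base over all transcripts of the strand or of no strand (right). Points are animals (Tough red, Tender blue) and bars are group means. Of the values at 0 on the left, only that of IG157 in Tender 4 is at 0 on the right.

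The comparison of Tough with Tender animals asked whether the amount or kind of spliced intergenic transcription went with shear force, and no summary of it differed beyond the spread between animals. The Tough libraries held 153, 162, 136, 135, 132 and 142 such transcripts and the Tender libraries 125, 128, 147, 148, 139 and 108. The means were 143 ± 12 and 133 ± 15 (SD, n = 6 each), with p = 0.210 in the exact permutation test over all ways to form the groups, two-sided. As a share of all spliced transcripts the values were 0.774 ± 0.060% and 0.728 ± 0.076% (exact permutation p = 0.277). The summed level was 499 ± 139 FPKM and 615 ± 195 FPKM (exact permutation p = 0.255). The share of a library's transcripts found in no other library was 33.7 ± 5.3% and 30.01 ± 4.3% (exact permutation p = 0.201), and without Tough 3 it differed by 5.58 percentage points (exact permutation p = 0.0368). Median level, median length and mean exon number had exact permutation p of 0.359, 0.595 and 0.656. Adjusted over the 7 measures, p was 0.485 to 0.656. The files hold no read totals, but the ratio of coverage to FPKM, which follows depth, was 6.55 to 10.3. It had r = 0.23 and rho = 0.14 with the number of transcripts (permutation p = 0.460 and 0.671, n = 12), 0.47 without the 2 most extreme libraries, 0.22 within the Tough group and -0.037 within the Tender group. With the share in no other library, r was 0.50 and rho 0.36 (permutation p = 0.0929 and 0.258, adjusted 0.186 for r over both relations), and r was 0.66 without the 2 most extreme libraries, 0.87 within the Tough group and -0.43 within the Tender group, so it did not hold in both groups.

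Single loci were tested with limma on log2(FPKM + 0.5), a scale that understates changes of low values, together with all annotated genes of mean above 0.5 FPKM. Of the 365 loci, 55 passed this minimum. None was called at the thresholds the study set for p (0.05), for the adjusted p (0.10) and for the fold change (1.5). Over all 9184 features tested the share called was 0.0%. The study used a different test and a further Tender animal, and reported genes and isoforms that passed, so the counts cannot be set side by side. An unadjusted p of 0.05 or less was reached by 4 of 55 loci (7.27%), against 2.47% of all features. Of these, 3 were higher in the Tough group (background 0.762%) and 1 in the Tender group (background 1.71%). In the exact Wilcoxon rank-sum test 1 of the 55 loci reached an unadjusted p of 0.05, against 194 of all 9184 features. The median log2 difference was 0.04 over the 55 loci and -0.04 over all features, and 31 of the 55 (56.4%) were higher in the Tough group, against 40.0% of all features. In no locus did the groups not overlap (background 0.0218% with Tough higher and 0.0762% with Tender higher). Among single transcripts, 73 of 814 were tested with 18720 in all, 0 were called (background 0.0%) and 3 (4.11%, background 3.35%) reached an unadjusted p of 0.05 by limma. These 3 were all higher in the Tough group (background 1.45%) and belonged to IG75, IG213 and IG348. No single transcript had groups that did not overlap (background 0.0267% with Tough higher and 0.0588% with Tender higher).

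IG348 had the smallest p of the loci. Its span is chr18:42227733-42235429 on the plus strand, 366 bases from LOC106506831 and head-to-head with it. It had 2.78, 1.32, 0.509, 1.66, 1.75 and 1.02 FPKM in the Tough group and 1.86, 0.631, 0.515, 0, 0.722 and 0 FPKM in the Tender group. Most Tough animals were above most Tender animals, with Tough 3 and Tender 1 as the exceptions. The log2 difference was 0.96 ± 0.39 (SE, exact permutation p of 0.0519, limma adjusted p of 0.9999). Per exonic base it was 0.87 (exact permutation p of 0.0325), and Tender 6 was still listed at 0.

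IG319 was the locus below 0.05 that was higher in the Tender group. It lay on chr15:81978295-81979384 on the plus strand, 3402 bases downstream of HOXD3, a homeobox transcription factor of body patterning. It had 5.65, 3.195, 2.83, 5.36, 3.23 and 2.25 FPKM in the Tough group and 4.23, 5.41, 5.85, 4.85, 5.43 and 4.52 FPKM in the Tender group. The Tender animals lay close together, and 4 of the 6 Tough animals were below all of them. The log2 difference was -0.44 ± 0.19 (SE, exact permutation p of 0.0519, limma adjusted p of 0.9999). HOXD3 itself was at 0 to 0.243 FPKM.

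IG213 and IG48 had a p below 0.05 on the assembled scale but not per exonic base. IG213 (chr9:4700194-4701654, plus strand) was listed at 3.48, 0, 22.0, 0, 18.1 and 0 FPKM in the Tough group and at 0 in all 6 Tender libraries. Per exonic base it had 3.48 to 26.0 FPKM in the Tough group and 3.99 to 26.5 FPKM in the Tender group (exact permutation p of 0.647). All 697 bases of its transcript matched the pig mitochondrial genome of the same assembly, in 2 alignments of 98.5% and 100% identity on opposite strands. It was the only one of the 365 loci with such a match, which was searched for after its sequence was seen. Reads of nuclear and mitochondrial copies cannot be told apart in these files. Its exon junction is shown for this reason, with the intron at chr9:4700820-4701425.
IG213: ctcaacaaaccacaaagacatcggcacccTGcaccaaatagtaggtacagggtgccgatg

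IG48 (chr2:69129793-69142992, minus strand, 71 bases downstream of ICAM3, a leukocyte adhesion molecule) had 0, 2.096, 1.90, 1.80, 2.40 and 1.86 FPKM in the Tough group and 1.42, 0, 0, 0, 0.5001 and 1.49 FPKM in the Tender group. Per exonic base all 12 libraries were between 1.42 and 2.55 FPKM, and the log2 difference fell from 1.11 to 0.07 (exact permutation p of 0.623).

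The remaining loci named by the rule did not reach 0.05 on either scale. IG259 (chr12:35998686-36064825, plus strand, 6 exons) ended 442 bases upstream of MIR21, a widely expressed microRNA, on its strand. Its intergenic transcript was assembled in Tough 4 (4.97 FPKM) and Tough 5 (3.91 FPKM), and the other 10 libraries were listed at 0, but per exonic base 11 of 12 libraries were above 0, up to 7.63 FPKM. IG103 (chr3:114844027-114846481, plus strand, 322 bases downstream of ATAD2B) had 0 to 0.876 FPKM in the Tough group and 0 to 1.73 FPKM in the Tender group. IG126 (chr4:110971515-110975773, plus strand) had 0.148 to 0.874 FPKM and 0.216 to 1.00 FPKM, and its neighbour TMEM167B had 2.58 to 3.82 FPKM over all 12. IG31 (chr1:264223157-264237761, plus strand, 4 exons, 4451 bases downstream of LOC102165127) had 0.687 to 3.34 FPKM in the Tough group and 0.964 to 8.94 FPKM in the Tender group, with the highest value in Tender 2.

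Loci that were not assembled in every library had the larger changes between groups, and less so per exonic base. The 55 tested loci had 660 values over the 12 libraries, of which 159 were 0, and 99 of these (62.3%) were above 0 per exonic base. The 22 tested loci assembled in all 12 libraries had a median absolute log2 difference of 0.10, and 1 exceeded a fold change of 1.5. The 33 assembled in fewer had a median of 0.66, and 18 exceeded it. Per exonic base the median of those 33 was 0.31 and 9 exceeded it. The sign of the difference turned in 13 of the 54 loci that passed the minimum on both scales.

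**Figure D5:**
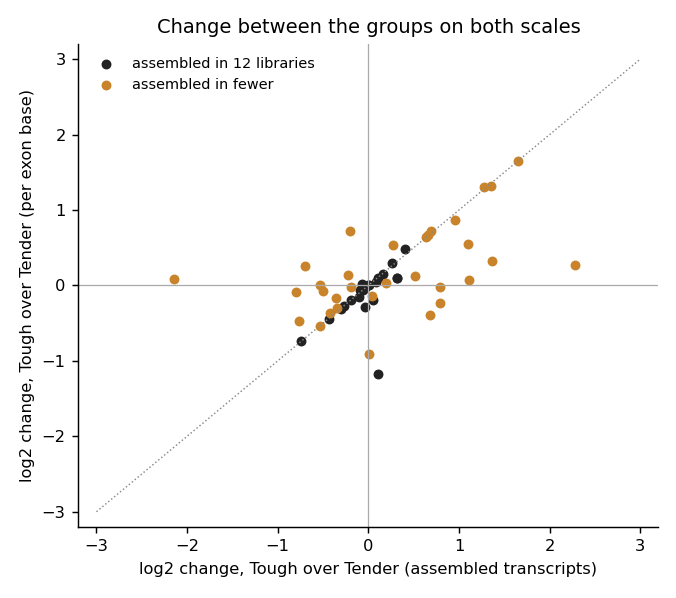
Log2 difference between the groups, Tough over Tender, of the 54 loci tested on both scales. Values are from assembled intergenic transcripts (horizontal axis) and per exonic base over all transcripts of the strand or of no strand (vertical axis). Points are loci, black where assembled in 12 libraries and orange where in fewer, and the dotted line marks equal values. Most black points lie near the line, and 13 loci have opposite signs on the 2 scales.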

How the data were processed

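Paired-end libraries from 12 Longissimus dorsi samples were mapped to Sscrofa11.1 with TopHat2 2.1.0 and assembled per library with Cufflinks 2.2.1 by the authors, after FastQC and Trim Galore, per the submitters' processing notes. The deposited file of each library gives exons and the authors' FPKM of each transcript; it holds no counts, so no counting error was derived and no rescaling was applied. Whether the libraries keep strand is not given in the sources used here. One more Tender animal of the study was not analysed here.

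Transcripts were compared with NCBI Release 106 of Sscrofa11.1 (28224 genes). For 25 of the 814 transcripts, some library also held a copy with the same introns that failed the rule. Such copies count in the FPKM of transcripts and loci and in the number of libraries. They do not count in the exons of a locus or in the number of transcripts per library. Assignment to a gene needed at least 50% of a transcript's bases in its exons, on its strand. Locus FPKM was the sum of FPKM times length over the merged exonic length, with an unassembled locus at 0. The value per exonic base summed FPKM times the overlapping bases over the same length. It took every transcript of that strand and also single-exon transcripts without a strand. Protein and transcript matches used BLAST 2.17.0 (expected value of at most 1e-10).

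Groups came from the sample titles. Loci and transcripts with a mean above 0.5 FPKM were fitted with limma 3.58.1 in R 4.3.3 (trend, log2(FPKM + 0.5), Benjamini-Hochberg over all features); other tests were exact permutations with numpy 2.4.6 and scipy 1.17.1. Each animal is 1 replicate. On simulated data, 100 features were changed by 1 and 100 by 2 on the log2 scale. Of these, 79 and 96 were called among 9184 genes and loci with 19 false calls, and 6 and 27 among 18720 transcripts with 4. The changed features were drawn from all features, and the simulated noise was normal and did not model the values of 0 in these data. These rates are therefore not those of the 55 tested loci, whose median SE was 0.46. Loci were named by a rule: the 8 highest means, the 5 smallest p in each direction, and the 3 transcripts in all 12 libraries with most exons. The members and lists were chosen with earlier results of these data known. Alternatives were other pseudocounts, filters, scalings, normalizations, locus definitions, tests, a replicate block and leaving out each library.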

Additional observations from a re-analysis of the deposited data

Results flagged for a closer look

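In groups of 6 animals, a value was marked when its gap to the nearest other animal exceeded Dixon's critical share of the group's range. For normal values, chance gives this in about 1 of 20 groups. The groups of several loci were examined, so some marks can arise by chance. IG305 had 195.05 FPKM in Tough 2, the highest of its group. IG188 was listed at 0 in Tough 1, the lowest of its group, and had 8.88 FPKM there per exonic base. IG185 had 15.5 FPKM in Tough 4, the highest of its group. IG48 was listed at 0 in Tough 1, the lowest of its group, and had 1.97 FPKM there per exonic base. IG31 had 8.94 FPKM in Tender 2, the highest of its group, and the interferon response genes summed to 373 FPKM in that library.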

How the results depend on the processing

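The number of loci and transcripts called stayed at 0 under each alternative run. Of 727 values under alternatives, 675 kept their direction and side of the threshold or moved little. The 4 of 55 loci at an unadjusted limma p of at most 0.05 became 13 of 365 with no filter on the mean. Among annotated genes, the same change took 223 of 9129 to 365 of 13316. Per exonic base, 5 of 120 loci reached this p, against 258 of 9395 genes. With array weights it was 6 of 55 loci, against 648 of 9129 genes. The 4 loci became 2 with quantile normalization, 1 with the exact Wilcoxon test and 0 to 4 without 1 library. They were 0 without Tender 4 and 1 without Tender 3. They were 2 without any of Tender 5, Tender 6 and Tough 1, 2, 3, 5 and 6. The 3 of 73 transcripts became 7 of 814 with no filter. Among the other transcripts, 624 of 18647 became 983 of 86464. Without 1 library, the 3 transcripts became 0 to 4 (0 without Tender 4). With the replicate number as a block there were 2 loci and 4 transcripts. The numbers do not pair the animals (correlations of -0.22 to 0.02, and 0 of 6 Tough libraries closest to their own number).

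At least 5000 bases from genes, the group difference was -1.67 transcripts and -0.013 percentage points of share, in the opposite direction to that over all members, and against long non-coding RNAs the exon difference was -0.39, the GC difference -0.66 and the soft-masked difference 0.29 percentage points, none past 0.05. With transcripts of at least 0.5 FPKM, the group difference in median log2 FPKM was 0.15, the length difference from long non-coding RNAs 66.7 bases and the GC difference from coding genes -0.80, the last pair no longer past 0.05. With transcripts in at least 2 libraries, where the share in no other library has no value, the first and the last of these were 0.075 and -0.44, the latter not past 0.05 either. Without 1 library, the exon difference between groups was -0.016 to 0.16 (negative without Tough 5) and that in the share in no other library 2.41 to 5.58.

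The log2 difference of IG305 was -0.15 with a pseudocount of 1, -0.60 with array weights, -0.91 per exonic base and -1.12 to 1.13 without 1 library. That of IG266 was 0.090 and that of IG103 0.00055 per exonic base. That of IG31 was -0.0051 with a pseudocount of 1, -0.21 for its highest transcript and -0.14 to 0.40 without 1 library. The cause of these shifts was not tested, except that values of 0 are replaced per exonic base. Without read counts, precision at low FPKM is unknown.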
